A study of Bos taurus with 24 samples.

Results

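Measured in bovine ovarian follicles, 7 genes of follicular steroid synthesis and of the theca are described here, CYP11A1, FDX1, HSD3B1, CYP19A1, HSD17B1, INSL3 and GLI1. They were chosen by name, and every array feature that the platform annotation assigns to 1 of these symbols was used. This gave 12 of 17418 features, of which 5 are for INSL3, 2 for FDX1 and 1 for each of the others. The 7 genes are among 9425 genes with a symbol on the array, and all 7 had values on all 24 arrays, although 1 INSL3 feature, the fifth, had a value on 23.

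The title of the series names follicle selection, the process by which a growing follicle becomes dominant. RNA came from 16 heifers, each giving its largest follicle, with diameters of 8 to 12 mm. On each 2-colour array the RNA of 2 follicles was compared directly, with 5 µg of total RNA per follicle. Every follicle was on 3 arrays and was labelled with both dyes. Follicles are labelled with an identifier alone, without a treatment, stage, breed or age, so each group is 1 follicle of 1 animal and the comparison is between follicles. What a level shows is therefore a difference between 16 RNA samples, and the error in the F tests below is array error, not spread between animals of a group.

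Steroid synthesis in the follicle is divided between 2 cell layers. Cholesterol is cut to pregnenolone inside mitochondria by CYP11A1, the side-chain cleavage enzyme, with electrons passed on by the small iron-sulphur protein FDX1. HSD3B1 converts pregnenolone to progesterone, and on the androgen branch makes androstenedione. The theca, the outer layer, makes androgen under luteinising hormone and secretes the relaxin-like hormone INSL3. The granulosa, the inner layer, turns the androgen into oestradiol with CYP19A1, the aromatase, and HSD17B1, which reduces oestrone to oestradiol. GLI1 is a transcription factor and a target gene of the hedgehog pathway, through which granulosa cells signal to the theca.

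Values are array log ratios, taken as log2 of Cy5 over Cy3. Base and direction are not stated in the sources used here, and with the inverse ratio every ratio and level below would change sign, while tests, spreads and correlations would stay. From the loop of arrays a level was estimated for each gene in each follicle, relative to the mean of the 16 follicles. Its standard error (SE) comes from array error over 3 arrays, or fewer where a value is missing. A level is relative within 1 gene, so levels of different genes are not compared, and presence of a transcript cannot be read from it. Signal over background was not used here. The number of arrays limits the precision, with a median SE of 0.13 over all genes. Follicle J980 stood apart from the rest. Of 1020 genes that differed between follicles, 399 were lowest in J980 and 90 highest, so results are given with J980 and without it. The loop also has a weak point, since 2 sets of 8 follicles are joined by only 2 arrays, those of C10 with 26 and of C26 with 33. Differences between the sets rest on these arrays. For none of the 7 genes did the means of the sets differ by more than 2 SE, with the largest ratio for INSL3 at 0.17 ± 0.12 (SE).

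Of the 7 genes, 5 differed between follicles by the moderated F test of limma with Benjamini-Hochberg adjustment over 9031 genes at 0.05. FDX1, HSD3B1, GLI1, CYP11A1 and INSL3 passed, and CYP19A1 and HSD17B1 did not. Over all genes tested, 11.3% passed. Without J980 and its 3 arrays, 3 of the 7 passed, FDX1, HSD3B1 and GLI1, where 7.93% of genes did. The same 3 passed when follicles were compared only within their set, without the linking arrays, where 10.1% of genes did. The SD of the 16 levels was 0.45 for GLI1, 0.44 for CYP11A1, 0.41 for FDX1, 0.28 for HSD3B1 and 0.19 for INSL3, beside a median of 0.17 over all genes.

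**Figure D1:**
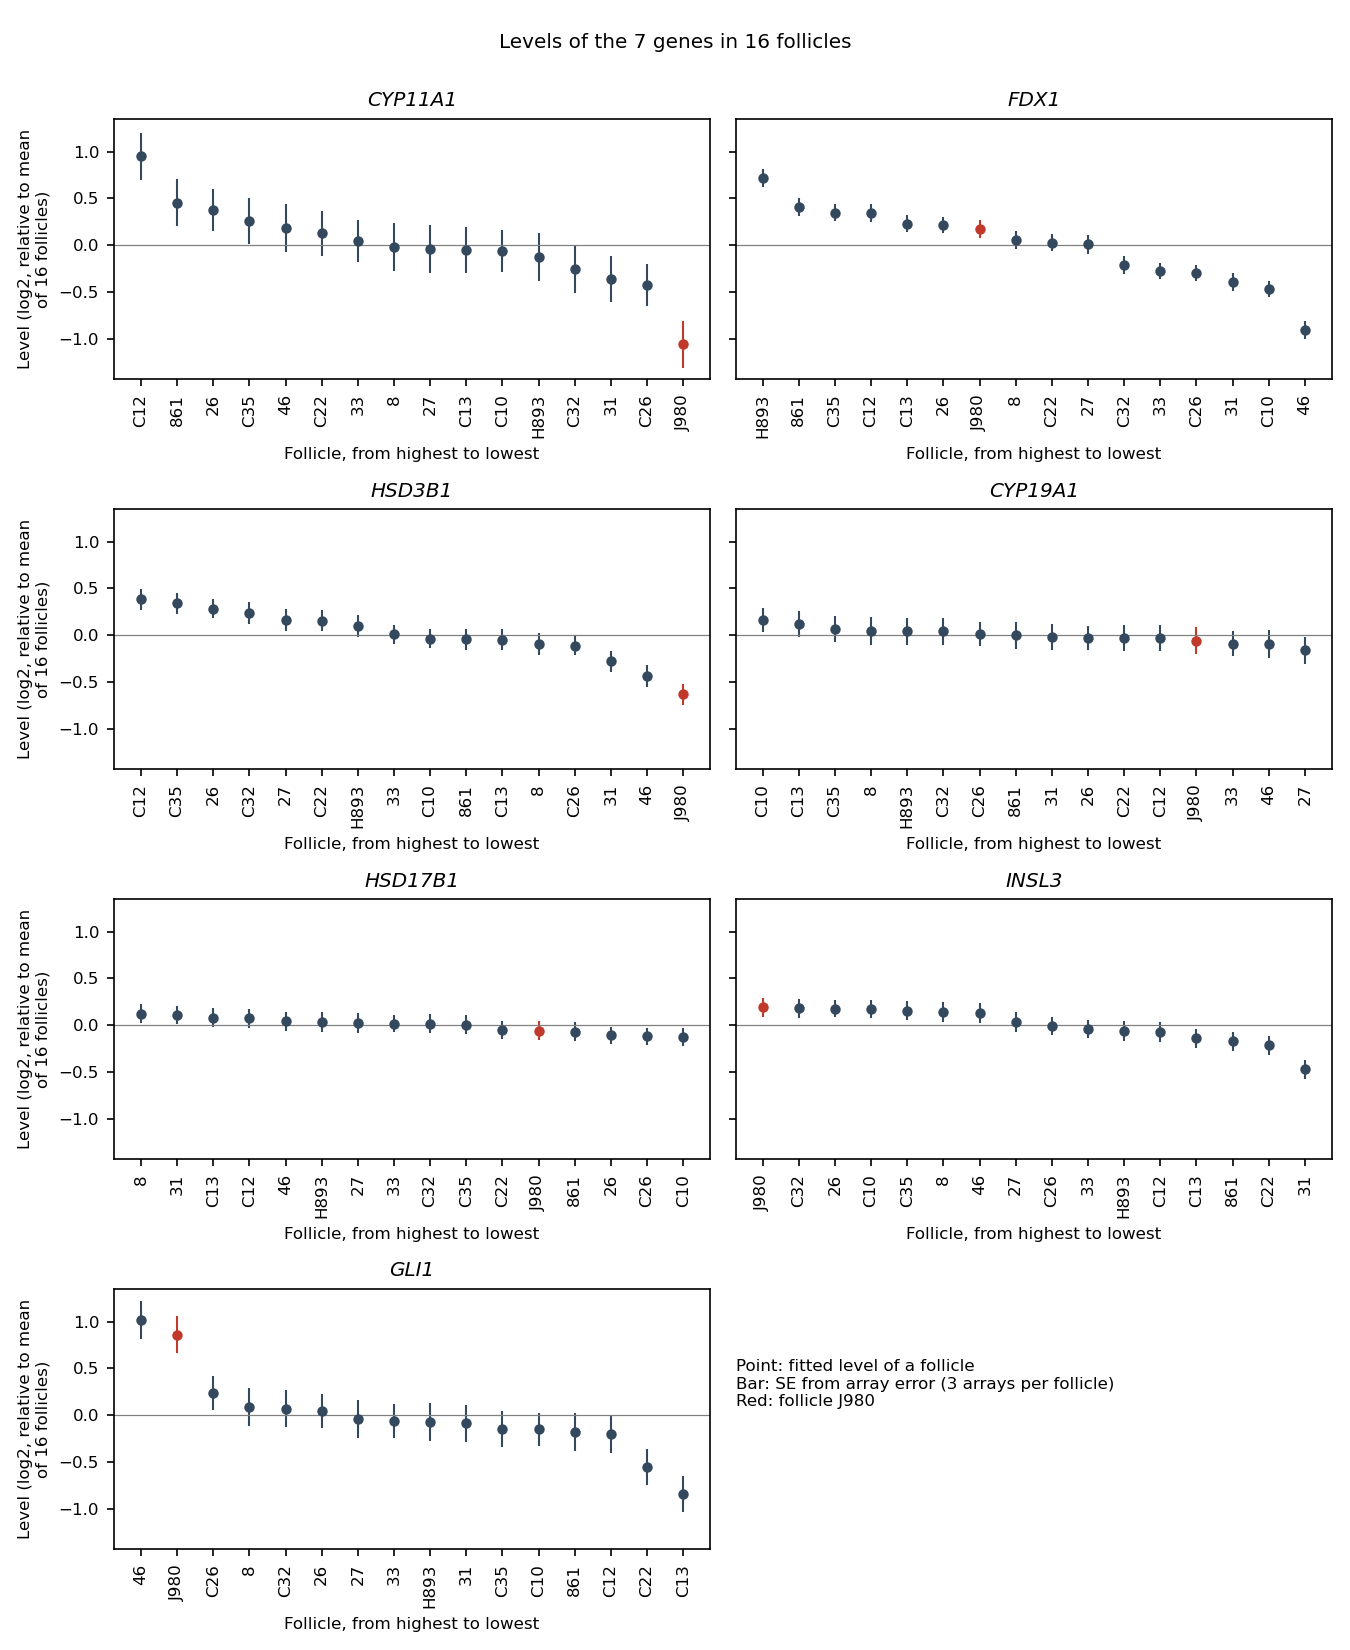
Fitted levels of the 7 genes in each of the 16 follicles, in log2 units relative to the mean of the follicles (vertical axis), ordered from highest to lowest for each gene (horizontal axis). Points are levels, bars are 1 SE from array error, and J980 is red. CYP11A1 spans 0.95 to -1.06 and GLI1 1.02 to -0.84, while CYP19A1 and HSD17B1 stay between 0.17 and -0.16.

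**Figure D2:**
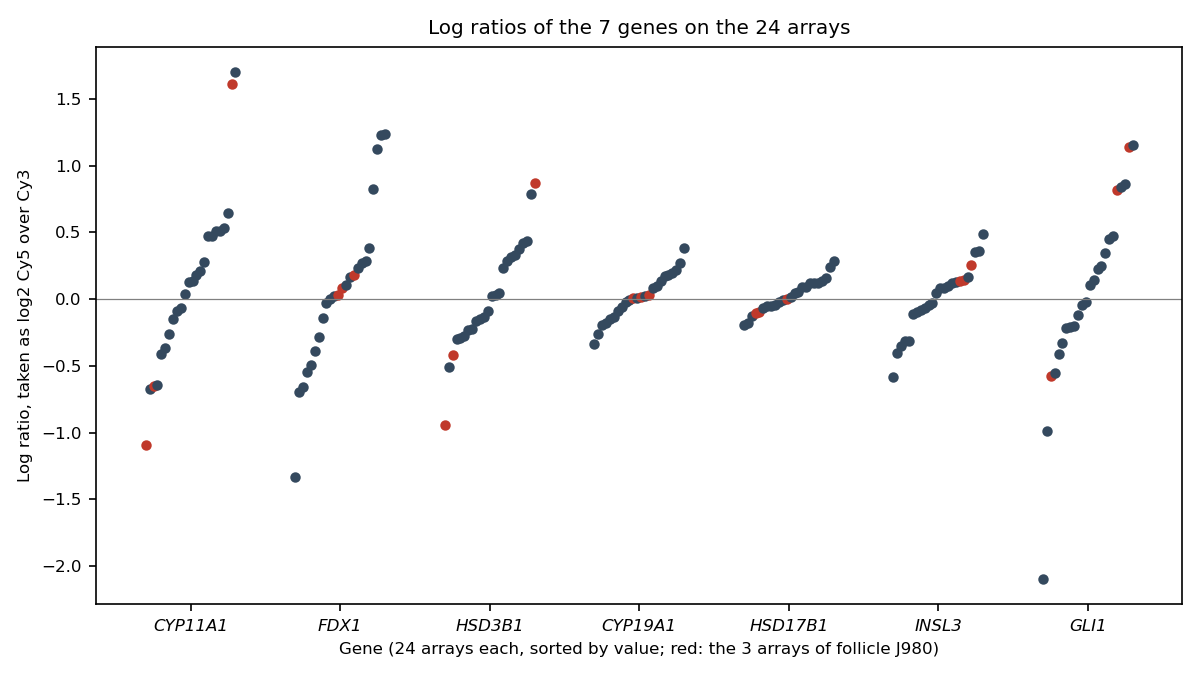
Log ratios of the 7 genes on the 24 arrays (vertical axis, taken as log2 Cy5 over Cy3), sorted within each gene (horizontal axis), with the 3 arrays of J980 in red. The ratios reach 1.70 for CYP11A1 and -2.09 for GLI1, and all lie between -0.34 and 0.38 for CYP19A1.

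CYP11A1, the enzyme of the first step, ranged from 0.95 ± 0.25 (SE, 3 arrays) in follicle C12 to -1.06 ± 0.25 in J980, with a median level of -0.03. With logs of base 2 this is a 4.02-fold difference, 2.01 ± 0.42 on the log2 scale. C12 and J980 belong to different sets, so the difference crosses the linking arrays. Over 24 fits without 1 array, the range of levels was smallest, 1.55, without the linking array of C26 with 33. It was largest, 2.47, without that of C10 with 26. The other 14 follicles lay between 0.45 in 861 and -0.43 in C26. Without J980 they ran from 0.89 in C12 to -0.46 in C26. With J980 included, only C12 and J980 were more than 2 SE from the mean, and none of the 15 neighbours in the order were more than 2 SE apart. The widest gap was that between C26 and J980, at 0.63 ± 0.33.

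The arrays themselves show the same ends. J980 was below its partner on each of its 3 arrays, by log ratios of -0.65 against 8, -1.10 against 27 and -1.61 against 26. C12 was above its partners, by 1.70 over H893, 0.53 over 46 and 0.65 over 33. The excess of C12 over H893 was thus far larger than over the other 2. Array error was large for this gene, with an SD of 0.33 beside a median of 0.18 over all genes. The adjusted p from limma was 0.039 with all follicles and 0.194 without J980. Leaving out 1 array ended the call in 18 of 24 fits, with adjusted p between 0.0042 and 0.123 over the 24. It held without the arrays of C12 with H893, C12 with 46, 27 with C32, 46 with 861, H893 with 861 or J980 with 8.

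FDX1, the electron donor of CYP11A1, gave the clearest order of follicles among the 7 genes. Its level was 0.72 ± 0.10 (SE, 3 arrays) in H893, with a median of 0.04 and a lowest level of -0.90 ± 0.10 in follicle 46, a 3.09-fold difference. Of the 16 follicles, 6 were more than 2 SE above the mean and 6 more than 2 SE below. H893 was above the next follicle, 861, by 0.32 ± 0.10. There was a gap of 0.22 ± 0.10 between 27 and C32, and 46 was below C10 by 0.43 ± 0.12. The other 12 neighbours were within 2 SE of each other. J980 held the seventh place at 0.17 ± 0.09, above the mean and far from its low end for CYP11A1.

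Follicle 46 was below each partner for FDX1, by -1.23 against C13, -1.12 against C12 and -1.33 against 861. H893 was above each of its partners, by 1.23 over 31, 0.29 over 861 and 0.29 over C12. Array error was 0.13, and no array departed from the fitted levels by more than 0.12. Without J980 H893 and 46 kept their places, at 0.74 and -0.89. The adjusted p from limma was 7.58e-05 with all follicles and 6.18e-04 without J980. The call held in all 24 fits that left out 1 array, with adjusted p between 1.74e-04 and 7.01e-04.

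The 2 FDX1 features gave the same picture. Both had H893 highest, at 0.87 ± 0.15 and 0.57 ± 0.09, and follicle 46 lowest, at -0.77 ± 0.15 and -1.04 ± 0.09. Their levels correlated over the 16 follicles with r = 0.92, a description of spots that share the arrays. Both passed on their own, with adjusted p from limma of 8.00e-04 and 5.52e-05 over 16358 features.

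HSD3B1, the enzyme that makes progesterone from pregnenolone, ranged from 0.38 ± 0.11 (SE, 3 arrays) in C12 to -0.63 ± 0.11 in J980, with a median of -0.01. The difference is 2.02-fold, again between follicles of different sets. J980 and C12 thus stood at the same ends as for CYP11A1. Follicle 46 was next to lowest at -0.44 and 31 followed at -0.28. C35 at 0.34, 26 at 0.29 and C32 at 0.24 were the other follicles more than 2 SE above the mean. None of the 15 neighbours differed by more than 2 SE, so the order of neighbours is not resolved.

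On its arrays J980 had HSD3B1 ratios of -0.42 against 8, -0.94 against 27 and -0.87 against 26. C12 was above each partner, by 0.42 over H893, 0.79 over 46 and 0.30 over 33. Follicle 46 was below its partners as well, by -0.79 against C12, -0.33 against C13 and -0.51 against 861. Without J980 the levels ran from 0.35 in C12 to -0.47 in follicle 46. The adjusted p from limma was 0.0049 with all follicles and 0.030 without J980. The call held in all 24 fits without 1 array, between 0.0061 and 0.0154.

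The marker lists of the granulosa and of smooth muscle and stroma had their lowest means in J980. Of 12 measured granulosa genes other than CYP19A1 and HSD17B1, 5 were lowest in J980 and 3 were above the mean there. Among the latter, GATM was highest in J980, at 0.71 ± 0.13 (SE, 3 arrays). The mean of the 12 in J980 was -0.56, where the other follicles ranged from -0.34 to 0.31. FST, which binds activin, was at -2.05 ± 0.10 (SE, 3 arrays) and INHBA, the activin and inhibin A subunit, at -2.69 ± 0.17 in J980. Of 11 smooth muscle and stroma genes, 5 were likewise lowest in J980 and 1 was above the mean there, with a mean of -0.29 where the others ranged from -0.15 to 0.15. Among genes that passed the F test, 399 of 1020 were lowest in J980. The list counts also take in genes that did not pass, and no share over all genes tested is given for them. The granulosa genes lowest in J980, FST, INHBA, GJA1, INHA and SERPINE2, all passed. Of the smooth muscle and stroma genes lowest there, ACTA2 passed, while ACTG2, MYH11, TAGLN and DES did not. Blood cell genes were not at an end in J980, with 10 of 17 above the mean and a list mean of 0.20, where the others ranged from -0.28 to 0.41. In RNA of mixed cells, fewer cells of a type and less RNA per cell cannot be told apart. The part of these markers in the low CYP11A1 and HSD3B1 of J980 was not tested. In the 15 other follicles the granulosa mean correlated with CYP11A1 at r = 0.09 and with HSD3B1 at r = -0.18, against 0.48 and 0.30 with J980 included, given as descriptions. For the smooth muscle and stroma mean these were -0.04 and 0.18 without J980, against 0.36 and 0.48 with it.

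CYP19A1 and HSD17B1, the enzymes of oestradiol synthesis in the granulosa, showed little spread. CYP19A1 ranged from 0.17 ± 0.13 (SE, 3 arrays) in C10 to -0.16 ± 0.15 in 27, with a median of -0.01. HSD17B1 ranged from 0.13 ± 0.11 in follicle 8 to -0.13 ± 0.09 in C10, with a median of 0.02. C10 was thus highest for the former and lowest for the latter, both within 2 SE of the mean. No follicle was more than 2 SE from the mean for either gene, and none of the 15 neighbours differed.

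The SD of the levels, 0.08 for both genes, was under the array error of 0.19 for CYP19A1 and 0.14 for HSD17B1. These errors are close to the 0.15 of HSD3B1 and the 0.13 of FDX1, which passed. No array had a ratio of 0.5 or more in size for either gene. The largest CYP19A1 ratio was 0.38, of C13 over 46, and the largest of HSD17B1 was 0.28, of 8 over C22. Highest and lowest follicle differed by 0.33 ± 0.22 for CYP19A1 and by 0.25 ± 0.16 for HSD17B1. The adjusted p from limma was 0.845 and 0.780, and neither gene passed in any of the 24 fits without 1 array. A difference of this size was not detectable with 3 arrays per follicle, which does not show that levels were equal. Each gene rests on 1 feature, and whether these lay above background was not tested.

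**Figure D3:**
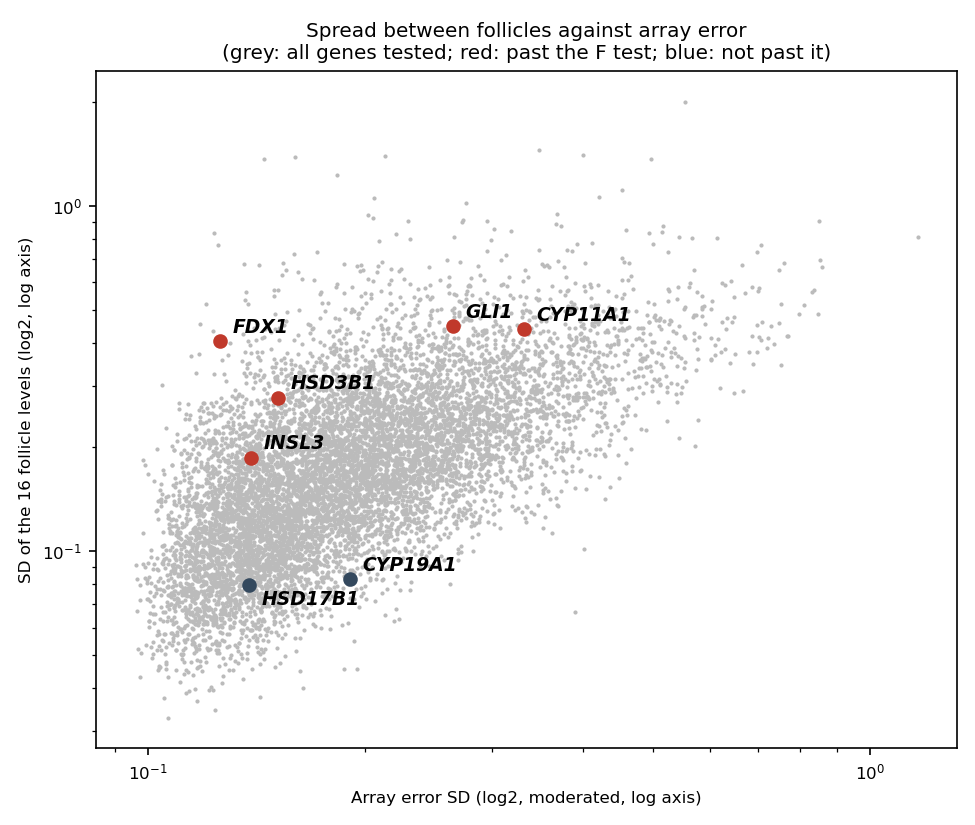
SD of the 16 follicle levels (vertical axis, log2, log scale) against the moderated SD of array error (horizontal axis, log2, log scale) for all 9031 genes (grey) with the 7 genes marked, red where they passed the F test and blue where not. FDX1 has a spread of 0.41 at an error of 0.13, and CYP19A1 a spread of 0.08 at an error of 0.19.

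INSL3, the hormone of the theca, ranged from 0.19 ± 0.10 (SE, 3 arrays) in J980 to -0.47 ± 0.10 in follicle 31 as the mean of its 5 features, with a median of 0.02. J980 and 31 belong to different sets, and the range of levels was 0.60 to 0.88 in the 24 fits without 1 array. Follicle 31 was below its partners by -0.36 against H893, -0.41 against C13 and -0.58 against C10. C22, at -0.21, was the other follicle more than 2 SE below the mean, and none was more than 2 SE above it. The adjusted p from limma was 0.047 with all follicles and 0.054 without J980. Leaving out 1 array gave 0.037 to 0.156, and the call held in only 3 of 24 such fits, those without the arrays of C12 with H893, C12 with 46 or 26 with J980.

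The 5 INSL3 features did not give 1 order of follicles. In feature 1 the levels ran from 0.78 ± 0.19 in J980 to -1.70 ± 0.18 in follicle 31, with an adjusted p from limma of 6.85e-04 over all features. Feature 5 ran from 0.67 ± 0.25 in C10 to -0.81 ± 0.27 in C13, with an adjusted p of 0.062. In features 2, 3 and 4 the SD of the levels was 0.14, 0.11 and 0.11, and none passed, with adjusted p of 0.988, 0.286 and 0.405. Follicle 31, lowest in feature 1, stood there at -0.12, -0.05 and -0.01. The 10 pairs of features correlated over follicles with r from -0.56 to 0.54 and a median of 0.06, where the 2 features of FDX1 had 0.92.

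The call for INSL3 rested on feature 1. On the 3 arrays of follicle 31 this feature gave -1.45 against H893, -1.59 against C13 and -1.94 against C10. Without feature 1 the adjusted p of INSL3 from limma was 0.371, and with the median of the 5 features it was 0.461. Without any other single feature it was 0.018 to 0.036. The features were named from the platform annotation, and which transcript each spot binds was not tested. Counted by feature, 6 of the 12 passed, beside 12.2% of 16358 features.

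**Figure D4:**
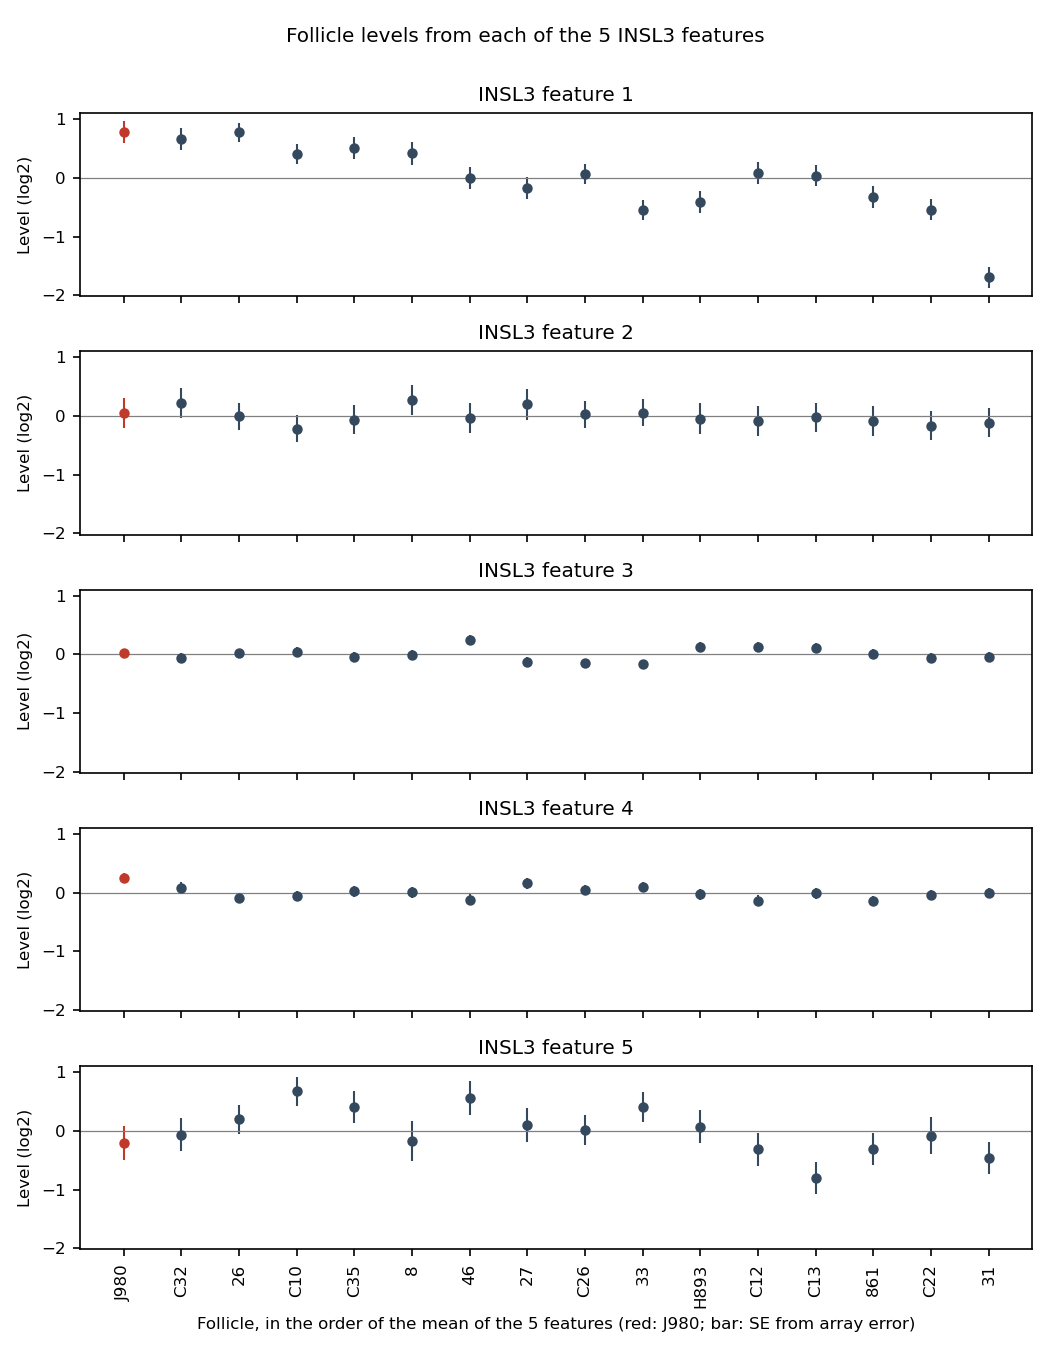
Levels in log2 units (vertical axes) from each of the 5 INSL3 features in the 16 follicles (horizontal axis, in the order of their mean), with 1 SE of array error and J980 in red. Feature 1 falls to -1.70 in follicle 31, which stands at -0.12, -0.05 and -0.01 in features 2, 3 and 4.

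GLI1, the hedgehog target gene, had 2 follicles well above the rest. Its level was 1.02 ± 0.20 (SE, 3 arrays) in follicle 46 and 0.86 ± 0.20 in J980, with a median of -0.07. C13 was lowest at -0.84 ± 0.19 and C22 next at -0.55 ± 0.19. The other 12 follicles lay between 0.24 and -0.20, within 2 SE of the mean. The gap between J980 and the next follicle, C26, was 0.62 ± 0.26 and was the only 1 of 15 over 2 SE. Highest and lowest differed 3.63-fold.

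Follicle 46 was above each partner for GLI1, by 2.09 over C13, 0.99 over C12 and 1.16 over 861. J980 was likewise above each of its partners, by 1.14 over 8, 0.82 over 27 and 0.58 over 26. C13 was below 31 by 0.48 and below 33 by 0.86. C22 was below C26 by 0.55, below 8 by 0.84 and below C35 by 0.41. Without J980, follicle 8 moved from 0.09 to 0.51, second to follicle 46 at 0.996, and C13 was lowest at -0.84. The adjusted p from limma was 0.0057 with all follicles and 0.0066 without J980. The call held in all 24 fits without 1 array, between 0.0028 and 0.0208, the latter without the array of C13 with 46.

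INSL3 and GLI1 were set beside other theca genes from a list. Of 12 other theca genes measured, 5 passed, where 11.3% of all genes did. The 12 had a median SD of 0.23. TCF21, a transcription factor of mesenchymal cells, was highest in 33 at 0.72 ± 0.10 (SE, 3 arrays) and lowest in C12 at -0.57 ± 0.11. COL1A2, a collagen chain, was highest in C10 at 0.84 ± 0.13 and lowest in J980 at -0.66 ± 0.14. The theca mean was 0.10 in follicle 46 and 0.05 in J980, where the other follicles spanned -0.22 to 0.22 in both cases, and it was lowest in C13. In J980 it took in RXFP2 at 1.46 ± 0.37, with an adjusted p of 0.234 from limma, which was not fitted without J980. Of the 12 genes 6 were above the mean in J980, and COL1A2 and ACTA2 (-0.36) were lowest there. Thus C13 was lowest both for GLI1 and for this list, while follicle 46 and J980 were not at the list's upper end. The mean correlated over 16 follicles with GLI1 at r = 0.52 and with INSL3 at r = 0.62, and at 0.54 and 0.62 without J980, as a description. The INSL3 levels here are the mean of its 5 discordant features. Values of similar size but negative were found for FDX1 (-0.59) and HSD17B1 (-0.51), and smaller ones for CYP11A1 (-0.24), CYP19A1 (-0.16) and HSD3B1 (-0.10). The mean of the cholesterol supply genes correlated with INSL3 at r = 0.58, so such values are not particular to theca genes. CYP17A1, LHCGR and STAR of the list were not analysed here.

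GLI1 was also set beside the hedgehog pathway. Of 10 other pathway genes measured, 1 passed, where 11.3% of all genes did. It was STK36, a kinase of the pathway, with levels from 0.33 ± 0.09 (SE, 3 arrays) in C10 to -0.21 ± 0.09 in C22. The adjusted p of STK36 from limma was 0.035 with all follicles and 0.094 without J980. IHH, the ligand of the granulosa, ran from 0.66 in 27 to -0.63 in 26 with an adjusted p of 0.063 from limma. The receptor PTCH1 and the transducer SMO were looked at after their values were seen. PTCH1, itself a known target, had an adjusted p of 0.307 and its highest level in 861, at 0.42 ± 0.19. SMO reached 0.80 ± 0.16 in J980 and was lowest in C13 at -0.40 ± 0.14, with an adjusted p of 0.187 from limma. SMO lacked values on some arrays and was not fitted without J980.

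CYP11A1, FDX1, HSD3B1, CYP19A1 and HSD17B1 belong to a list of steroid synthesis enzymes and electron donors. Of its 21 other genes measured, 2 passed, where 11.3% of all genes did. The 21 had a median SD of 0.20 beside 0.17 over all genes. DBI, an acyl-CoA-binding protein and ligand of the mitochondrial TSPO, ran from 0.78 ± 0.10 (SE, 3 arrays) in 861 to -1.07 ± 0.10 in J980. STARD5, a lipid transfer protein, ran from 1.18 ± 0.21 in C26 to -1.46 ± 0.27 in H893. It lacked values on some arrays, so these levels can rest on fewer than 3. The mean of the 21 genes correlated with CYP11A1 at r = -0.16, with FDX1 at r = -0.001 and with HSD3B1 at r = 0.20 over the 16 follicles, and at -0.30, 0.01 and 0.17 without J980, as descriptions.

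Of 9 genes of cholesterol supply, 3 passed, where 11.3% of all genes did. SOAT1, which stores cholesterol as ester, was highest in 8 at 0.47 ± 0.09 (SE, 3 arrays) and lowest in 26 at -0.55 ± 0.08. SCARB1, the receptor of high-density lipoprotein, had its highest level in J980, 0.36 ± 0.12, where CYP11A1 and HSD3B1 were lowest. It was lowest in follicle 46 at -0.56 ± 0.13, where FDX1 was lowest too. Of 13 gonadotrophin receptors and regulators of steroid synthesis, 2 passed, beside the same 11.3%. INSR, the insulin receptor, was highest in C35 at 0.86 ± 0.14 and NR4A1, an orphan nuclear receptor, in 33 at 0.83 ± 0.15.

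Among 12 granulosa genes other than CYP19A1 and HSD17B1, 7 passed, with a median SD of 0.34 beside the 0.08 of these enzymes. The mean of the 12 correlated with HSD17B1 at r = 0.53 and with CYP19A1 at r = -0.03, and at 0.55 and -0.22 without J980, as descriptions. The SD of the levels of both enzymes was under array error, so these values carry array error. HSD17B1 also had r = -0.61 with the endothelial mean, -0.53 with that of blood cells and -0.51 with that of the theca. With the remaining lists its r was smaller in size. In a list of luteinising cells, SCARB1 passed and VEGFA, an angiogenic factor, did not (adjusted p = 0.080 from limma). Of 8 endothelial genes PECAM1 alone passed, and CLDN5 was next (adjusted p = 0.058 from limma). Of 11 smooth muscle and stroma genes 2 passed, S100A4 and ACTA2. Of 17 blood cell genes 7 passed, with the smallest p for CXCR4, highest in J980, and IGHG1, highest in C26. Of 3 oocyte genes ZP3 passed, and ZP2 was next (adjusted p = 0.257 from limma). No list was tested against the 11.3% of all genes. Without J980, the list genes STK36, SERPINE2, ACTA2, CD68, NPC2 and ZP3 no longer passed, with adjusted p from limma of 0.055 to 0.178. STARD5, which passed with all follicles, was not fitted without J980.

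The members were then compared in pairs over the 16 follicles, to see whether they rose and fell together. Of 21 pairs, 0 passed by Pearson's r or by Spearman's rho after Benjamini-Hochberg adjustment (permutation tests with 100000 resamples, two-sided), and 2 had an unadjusted p under 0.05 by each. Without J980 and its arrays 0 passed as well, with the same numbers unadjusted. These tests take follicles as exchangeable, whereas levels share array error through the loop. The result is also sensitive to that loop. Without the linking array of C10 with 26, 8 pairs passed, and without both linking arrays, within sets, 1 did.

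CYP11A1 and HSD3B1 had the largest r, 0.67 (permutation adjusted p = 0.107), with rho 0.54 (adjusted p = 0.358). Within the sets r was 0.75 (permutation adjusted p = 0.023). It fell to 0.26 without J980 and C12, the follicles farthest from the median of CYP11A1, so the relation rests on those 2 follicles. The residuals of both genes over the 24 arrays also correlated, at r = 0.70, so departures of the arrays from the fitted levels were shared too. Without J980 and its arrays r was 0.49 (permutation adjusted p = 0.428). On the array of J980 with 27 the ratios were -1.10 and -0.94, and on that of 26 with J980 they were 1.61 and 0.87.

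FDX1 and HSD3B1 had r = 0.44 (permutation adjusted p = 0.334), and 0.67 without J980 and its arrays (permutation adjusted p = 0.126). Without 46 and H893, the follicles farthest from the median of FDX1, it fell to 0.27, and without the level of 46 alone it was also 0.27. They parted most in J980, with FDX1 at 0.17 and HSD3B1 at -0.63, each relative to its own mean. Their log2 ratio there was 0.80 ± 0.16 (SE, 3 arrays). It was also more than 2 SE from the mean in H893 (0.62), 861 (0.45), 46 (-0.47), C32 (-0.45) and C10 (-0.43). FDX1 and CYP11A1, the electron donor and its enzyme, had r = 0.22 (permutation adjusted p = 0.958). Follicle 46, lowest for FDX1, was above the mean for CYP11A1 at 0.18.

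GLI1 ran against HSD3B1 with r = -0.61 (permutation adjusted p = 0.132) and rho -0.42. Without J980 and its arrays r was -0.44 (permutation adjusted p = 0.428). Without the levels of J980 and follicle 46 it was -0.01, so this relation rests on those 2 follicles, which were highest for GLI1 and lowest for HSD3B1. INSL3 and GLI1 had r = 0.48 (permutation adjusted p = 0.334) and rho 0.63 (adjusted p = 0.248). Their r was 0.54 without 31 and C22, and 0.46 without J980 and its arrays. The residuals of INSL3 and GLI1 over the 24 arrays correlated as well, at r = 0.68. With 1 INSL3 feature left out, the r of their levels was 0.36 to 0.61, the latter without feature 1. CYP19A1 and HSD17B1 had r = -0.11 (permutation adjusted p = 0.958), over levels that did not exceed array error.

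**Figure D5:**
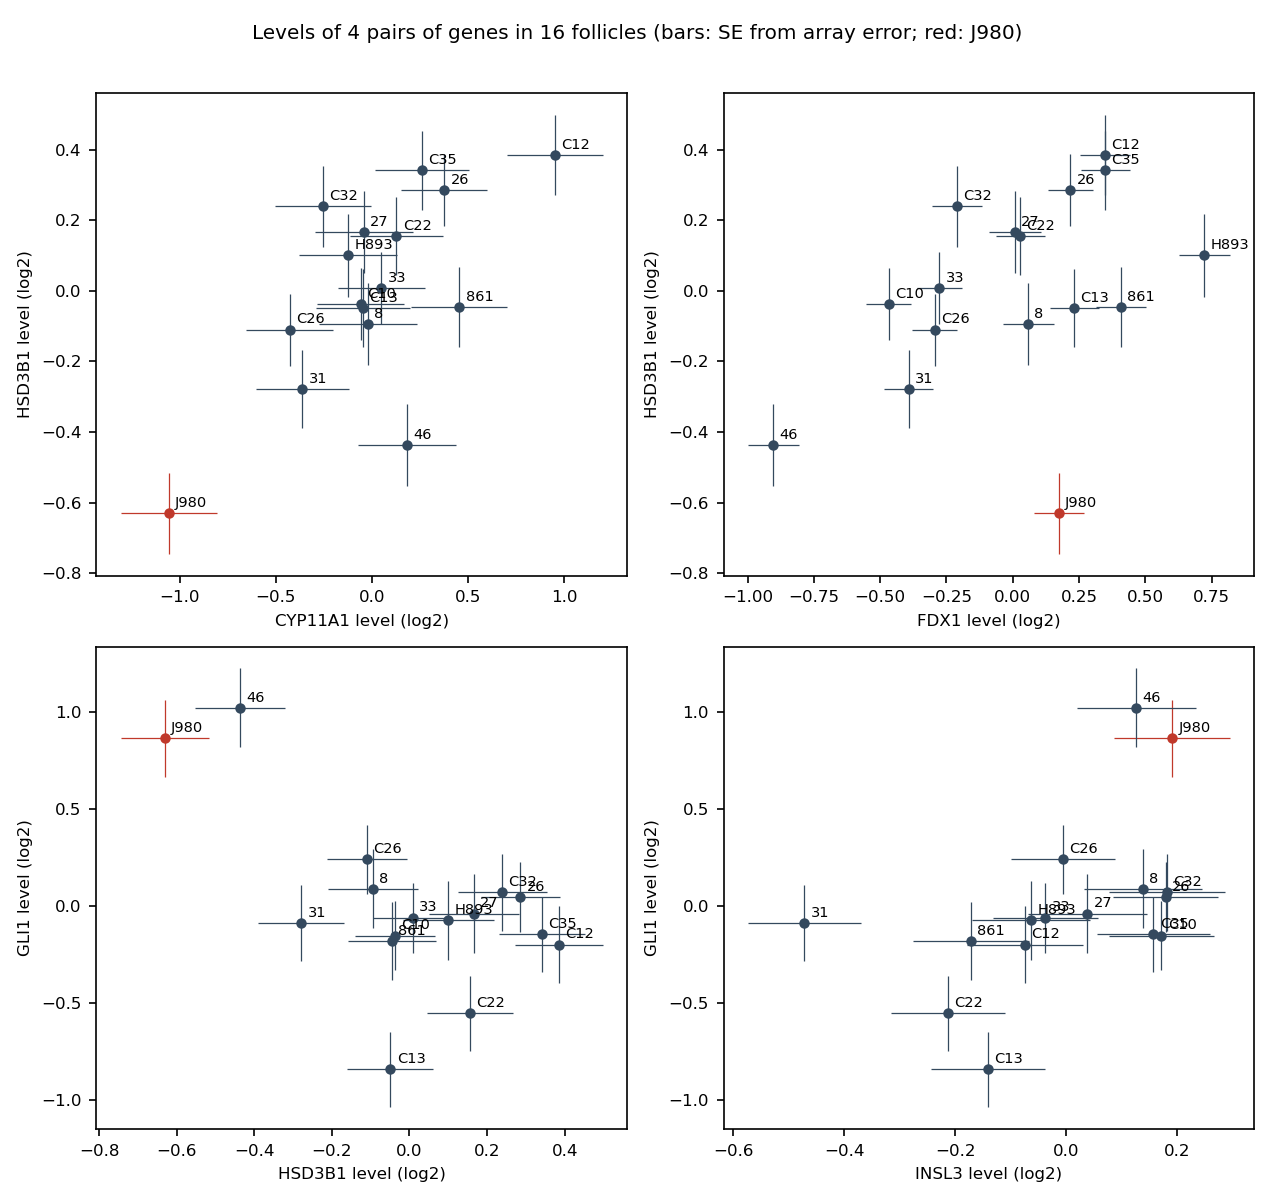
Levels of 4 pairs of genes in the 16 follicles (both axes log2, relative to the mean of the follicles), with 1 SE of array error and J980 in red. J980 lies at -1.06 for CYP11A1 and -0.63 for HSD3B1, and J980 and follicle 46 are the 2 follicles with GLI1 over 0.8.

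Ratios of 2 genes on the same array do not depend on how arrays are centred. Of 21 pairs of members, 15 differed between follicles in their ratio when the variances were moderated, 13 without J980, and 7 without moderation. Relative to CYP11A1 98.4% of all genes passed, relative to FDX1 99.2%, relative to HSD3B1 94.8%, relative to INSL3 50.4% and relative to GLI1 100%, against 6.12% relative to CYP19A1 and 6.45% relative to HSD17B1. A gene's own differences and errors enter every ratio taken to it, with or without moderation. Neither count is therefore a result about pairs, and no share over all genes is given here for the fits without moderation. The ratios that passed without moderation are described first.

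Those 7 were FDX1 to HSD3B1, HSD17B1, INSL3 and GLI1, HSD3B1 to INSL3 and GLI1, and INSL3 to GLI1. For each pair the larger adjusted p of its 2 fits is given, and the SE is from the moderated fit relative to the second gene. The log2 ratio of FDX1 to GLI1 was 1.07 ± 0.28 (SE, 3 arrays) in C13 and -1.92 ± 0.29 in follicle 46, relative to the mean of the follicles (adjusted p from limma = 4.50e-06, and 0.0046 without moderation). Relative to GLI1, moderation gave every other member the same SE in a follicle, so these SEs are not particular to FDX1. That of FDX1 to HSD3B1 was 0.80 ± 0.16 in J980 and -0.47 ± 0.16 in follicle 46 (adjusted p from limma = 5.86e-04, and 0.0047 without moderation). That of HSD3B1 to INSL3 was 0.46 ± 0.17 in C12 and -0.82 ± 0.17 in J980 (adjusted p from limma = 0.0045, and 0.029 without moderation). The ratio of CYP11A1 to HSD3B1, the pair with the largest r, did not pass, with an adjusted p of 0.336 from limma and 0.116 without moderation, and ran from 0.62 ± 0.21 in follicle 46 to -0.50 ± 0.20 in C32.

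For each gene the 3 genes most like it in level over the 16 follicles were found among the genes that passed the F test. These are the highest of 1019 or 1020 values of r, so they carry no test. A highest or lowest follicle shared with the member is favoured by that choice. For CYP11A1 they were MYL4, a myosin light chain (r = 0.88), SRA1 (0.78) and GNPTG (0.78), with 0.76, 0.56 and 0.56 over the 15 follicles without J980. All 3 were lowest in J980, as CYP11A1 was. For HSD3B1 they were CHMP2A (0.80), RAB35 (0.78) and PRDX3, a mitochondrial peroxidase (0.75), and these too were lowest in J980. Without it their r was 0.62, 0.56 and 0.59.

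For FDX1 they were PSMB9, a subunit of the immunoproteasome (r = 0.78), CYSTM1 (0.78) and FDPS, farnesyl diphosphate synthase of the mevalonate pathway (0.76). All 3 were highest in H893, where FDX1 was highest, and without J980 the r was 0.82, 0.80 and 0.81. FDPS ran from 0.68 in H893 to -0.65 in C26. For GLI1 they were EGLN1, an oxygen-sensing hydroxylase (0.68), MKLN1 (0.67) and PI16 (0.66), with 0.53, 0.56 and 0.62 without J980. PI16 was highest in follicle 46 at 1.19, where GLI1 was highest, and the other 2 were highest in J980.

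For INSL3 they were PRKCB, a protein kinase C (r = 0.75), ITGB5, an integrin subunit (0.74), and FLOT1 (0.73), with 0.81, 0.75 and 0.77 without J980. ITGB5 and FLOT1 were lowest in follicle 31, as INSL3 was. For CYP19A1 they were XRN2 (0.69), UFC1 (0.66) and SMARCD3 (0.58), and for HSD17B1 RPA3 (0.76), HOMER3 (0.74) and CDCA3 (0.73). Without J980 these were 0.60, 0.76 and 0.45 for CYP19A1 and 0.71, 0.67 and 0.65 for HSD17B1. The levels of these 2 members did not exceed array error, and all genes were measured on the same arrays.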

How the data were processed

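Total RNA of 16 follicles was hybridised to 24 2-colour arrays with dendrimer labelling and measured in GenePix Pro 4.0.1.12, per the labels' protocols. The authors deposited log ratios of the channels, which are treated as log2. Their largest size, 6.32, is above the 4.82 that log10 ratios of 16-bit intensities can reach, and natural logs are not excluded. Background correction and array normalization were not given in the sources used here. Deposited array medians lay between -0.014 and 0.0064, with 16094 to 17028 values per array. Features took symbols from the platform annotation, 13605 with 1 symbol, of which 13575 matched RefSeq by gene ID. Unused columns of per-sample values numbered 0.

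Each array was centred on its median and features of 1 symbol were averaged. Genes on at least 20 arrays were fitted with follicle effects and a dye term, leaving 8 residual degrees of freedom, and tested by a limma 3.58.1 moderated F test in R 4.3.3, with Benjamini-Hochberg adjustment at 0.05. The fit was tested on simulated data. The members, the 11 gene lists and the alternatives were chosen with earlier results of these data known. The rule named the 7 members, 3 genes most like each, and in each list the 2 other genes of smallest p, with PTCH1 and SMO named outside it. The fits by INSL3 feature, within the 2 sets, and with features averaged only when on at least 20 arrays were chosen after seeing the data. Plots used matplotlib 3.10.9 (Python 3.11.15).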

Additional observations from a re-analysis of the deposited data

How the results depend on the processing

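FDX1, HSD3B1 and GLI1 passed in all 24 fits that left out 1 array and under all 10 other settings tried, and CYP19A1 and HSD17B1 in none of them. Of the 7 members, 5 passed as reported, 3 without a dye term, 3 without moderation, 3 without J980 and 3 within the 2 sets without the linking arrays, and 3 to 5 in the fits without 1 array. CYP11A1 was lost in 5 of the 10 settings, and INSL3 in 6 of 16, which include its features left out in turn. Genes passing over the whole array numbered 579 without a dye term, 576 without moderation and 675 to 1136 without 1 array, against 1020. List genes numbered 23 without a dye term and 21 without moderation. Pairs correlated numbered 0 to 8 without 1 array, 0 to 1 without the level of 1 follicle, and 1 within the 2 sets. Member ratios that passed numbered 7 without moderation, against 15. The cause of these changes was not tested. Signal over background is unknown, so no limit from it can be given. No paired analysis was possible because each group is 1 follicle, and replicate numbers name its arrays in accession order.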
